A study of Mus musculus with 33 samples.

Results

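This comparison set 3 PTHrP WT mammary tumors of week 10 against 3 PTHrP KO mammary tumors of week 12, across all genes of the count table. The tumors were chosen by genotype and age alone, and they make up 6 of the 33 libraries of the series. At these ages the study places the tumors of each genotype at its carcinoma stage, so that the comparison asks what differs between WT and KO tumors once both have become carcinomas. The stage names come from the paper and not from the sample labels. WT mice were Pthrpwt/wt and KO mice Pthrpflox/flox, and all of them carried MMTV-Cre, MMTV-PyMT and the ROSA mTmG reporter. The MMTV lines were FVB, while the floxed allele came from C57BL/6 mice that had been crossed back to FVB over several generations. Cre removed exon 4 of the floxed Pthlh gene and switched the reporter from a red to a green fluorescent protein, so WT mice also expressed Cre and GFP. Tumor tissue was digested, cultured for 48 h in medium with 10% fetal bovine serum and sorted for GFP+ cells, at least 20000 per sample. Each library came from 1 mouse. Cre and PyMT were both driven by the MMTV promoter, which is active in mammary epithelium, and the culture before the sort means that RNA was not taken from fresh tissue. Because every WT tumor was 10 weeks old and every KO tumor 12 weeks old, an effect of genotype and an effect of age cannot be told apart in this comparison.

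PTHrP, the product of Pthlh, is a secreted peptide related to parathyroid hormone. It signals through the receptor PTH1R, which couples to stimulatory G proteins and raises cyclic AMP, so that protein kinase A phosphorylates the transcription factor CREB. It also has actions inside the cell, including in the nucleus. In the mammary gland it is made by epithelial cells and is needed for the gland to form in the embryo, and in breast cancer it is best known for its role in bone metastasis and high blood calcium. The PyMT oncogene is a membrane protein of a mouse virus that engages Src, PI3 kinase and Ras signalling and drives multifocal mammary tumors.

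The 6 libraries held 40849018 to 70950505 counted reads. Defining markers of luminal epithelium were abundant in all 6 tumors, with a summed level of 6304 to 14657 CPM (counts scaled to a common effective library size) over 10 genes. Markers of other cell types were low, with summed levels of 8.55 to 11.2 CPM for 10 macrophage genes, 0.0146 to 0.733 CPM for 10 lymphocyte genes, 5.31 to 9.67 CPM for 10 endothelial genes, 11.8 to 25.4 CPM for 10 adipocyte genes and 12.9 to 151 CPM for 10 fibroblast genes. The genotypes overlapped in all 5 of these sums, with exact permutation p-values (two-sided) from 0.2 to 0.5, where 3 against 3 cannot go below 0.1. In all 6 tumors 1 lymphocyte marker and 1 adipocyte marker were at 0. Basal keratins were present, with Krt14 at 579 to 1402 CPM. The share of reads on ribosomal RNA genes was 0.00331% to 0.952%, and that on mitochondrial rRNA was 0.976%, 2.83% and 0.901% in the WT tumors and 6.09%, 7.06% and 1.05% in the KO tumors (exact permutation test, two-sided, p = 0.8 and p = 0.2). The KO tumors with the higher shares were tumors 1 and 2. In sorted bulk samples, fewer cells of a type and less RNA per cell cannot be told apart.

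The targeted gene was expressed at a low level in all 6 tumors. Pthlh (chr6:147252101-147264183, GRCm38) was at 1.54, 1.46 and 2.65 CPM in WT tumors and at 2.13, 1.35 and 1.80 CPM in KO tumors, so the groups overlapped. Its log2 fold change, given throughout as WT minus KO, was 0.09 ± 0.38 (SE, n = 3 and 3), with a 95% interval of -0.69 to 0.87 and an edgeR adjusted p of 0.999. Only exon 4 is removed in KO mice, and a gene total can hold reads from the remaining exons, so this value does not check the knockout. Pth1r, which encodes the receptor, was close to the limit of detection, at 0.250, 0.236 and 0.0814 CPM in WT tumors and 0.0146, 0.190 and 0.125 CPM in KO tumors. Its log2 fold change of 0.82 ± 1.02 had an interval from -1.28 to 2.91.

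Of 20 genes of PTHrP and cyclic AMP signalling, 0 were called by edgeR or by DESeq2. An unadjusted p under 0.05 was found for 6 of the 20, beside 6.53% of all genes. The median log2 fold change of the 20 was -0.13, beside 0.05 for all 36527 genes tested. The stimulatory G protein gene Gnas was at 694, 647 and 699 CPM in WT and 769, 647 and 662 CPM in KO tumors. Among direct targets and modulators of the pathway, Sik1, a kinase gene induced by CREB, was at 155, 145 and 155 CPM in WT and 184, 223 and 279 CPM in KO tumors (log2 fold change -0.59 ± 0.18, edgeR adjusted p = 0.629). All KO tumors lay above all WT tumors for Sik1, for Nr4a2 (an orphan nuclear receptor gene) and for Prkar2b (a regulatory subunit of protein kinase A), 3 of the 20 beside 3.67% of all genes. The reverse held for Creb1 alone (1 of 20, beside 4.34%), at 117, 125 and 109 CPM in WT and 92.5, 102 and 106 CPM in KO tumors. None of these 4 differences passed the threshold in edgeR or DESeq2.

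Across all genes few differences between the carcinomas of the genotypes passed the thresholds in edgeR. With edgeR's quasi-likelihood test, 7 of 36527 genes were differentially expressed genes (DEGs, fold change over 1.5 and Benjamini-Hochberg adjusted p under 0.1), which is 0.0192% of those tested. Of these, 3 were higher in WT tumors (0.00821%) and 4 in KO tumors (0.011%). At an unadjusted p under 0.05 there were 2384 genes (6.53%), and DESeq2 in the same design called 128 (0.35%). All WT tumors lay above all KO tumors for 1587 genes (4.34%) and below them for 1342 (3.67%). Among 13077 genes with a mean of at least 1 CPM in the 6 tumors these shares were 4.37% and 4.34%. The 95% interval of the difference lay within a 2-fold range either way for 10506 (80.3%) of them. The root mean square log2 difference over these genes was 0.620 to 0.768 between WT tumors, 0.499 to 0.735 between KO tumors and 0.585 to 1.01 between tumors of different genotype.

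**Figure D1:**
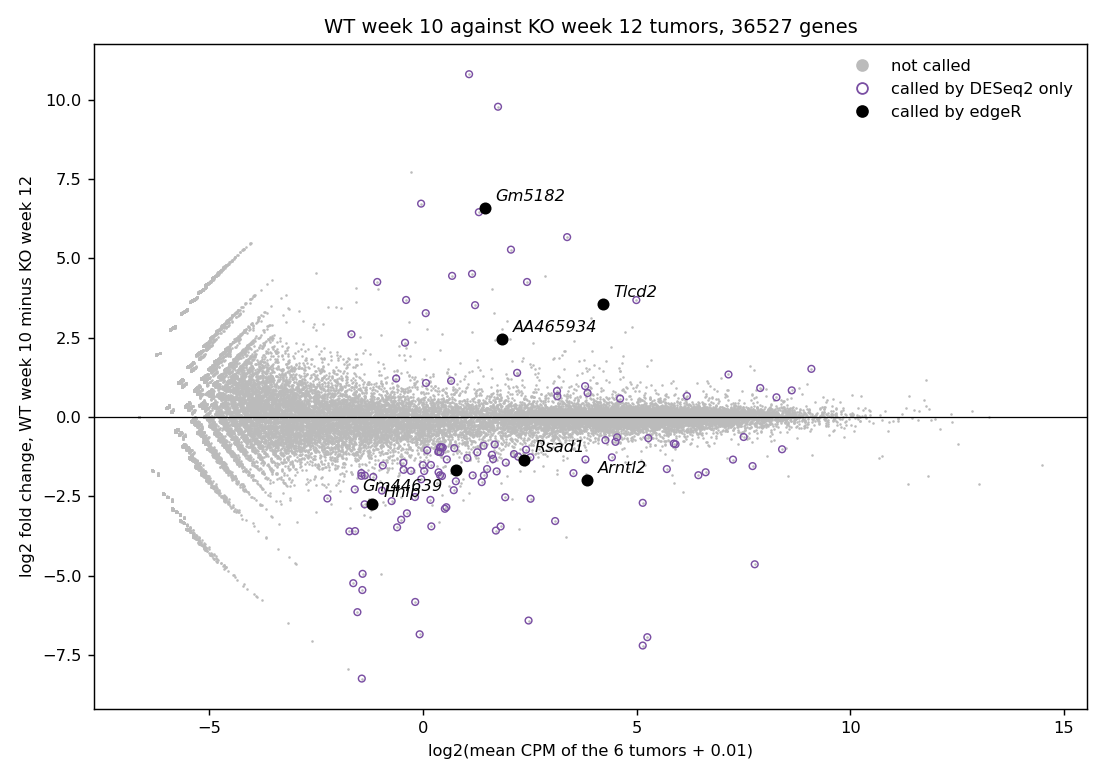
Log2 fold change (WT week 10 minus KO week 12, y axis) against log2 mean CPM of the 6 tumors (x axis) for each of 36527 genes. Filled points are the 7 DEGs of edgeR, open circles the genes that passed in DESeq2 alone, and grey points the rest, which lie close to 0 at high levels and spread widely at low levels.

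The 3 DEGs higher in WT tumors were a pseudogene, a lipid-related membrane protein gene and a transcript of unknown function. Gm5182 is a processed pseudogene (chr12:10152142-10158233, plus strand), and reads of such copies can be shared with the parent gene. It was at 6.20, 3.19 and 6.68 CPM in WT tumors and at 0.0146, 0.0634 and 0.0833 CPM in KO tumors, where 1, 3 and 6 reads were counted. All WT tumors thus lay far above all KO tumors, with a log2 fold change of 6.59 ± 0.93 (SE, edgeR adjusted p = 0.00739). Tlcd2 (chr11:75461715-75470899, plus strand) encodes a membrane protein of the TLC domain family, which takes part in regulating the lipid makeup of membranes. Its level was 56.2, 10.6 and 35.0 CPM in WT tumors and 1.75, 4.35 and 2.54 CPM in KO tumors, a log2 fold change of 3.57 ± 0.57 (edgeR adjusted p = 0.0299). WT tumor 2 was the lowest of its group for Tlcd2 and was also the lowest for AA465934. AA465934 is annotated as a processed transcript (chr11:83291699-83294632, plus strand), and it stood at 8.09, 2.01 and 8.12 CPM in WT and 1.14, 1.16 and 1.01 CPM in KO tumors. Its log2 fold change was 2.46 ± 0.43 (edgeR adjusted p = 0.0453).

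The 4 DEGs higher in KO tumors included a clock gene and an inhibitor of hedgehog signalling. Arntl2 (chr6:146796055-146833529, plus strand) encodes BMAL2, a transcription factor that pairs with CLOCK and binds E-boxes. It was at 4.01, 8.27 and 4.95 CPM in WT tumors and at 16.5, 24.0 and 28.2 CPM in KO tumors, so that the lowest KO tumor lay above the highest WT tumor. The log2 fold change was -2.00 ± 0.36 (edgeR adjusted p = 0.0734). Arntl2 lies 0.419 Mb from Pthlh on the same chromosome. Of the 13 genes between them 10 were tested, and 0 of these were called by edgeR or DESeq2 and 0 had an unadjusted p under 0.05. On the far side of Arntl2 from Pthlh, DESeq2 alone called Bhlhe41 (chr6, start at 145858243) and Gm44164 (start at 145238667). Bhlhe41 was higher in WT tumors (log2 fold change 0.92, DESeq2 adjusted p = 0.0815) and Gm44164 in KO tumors (-0.91, DESeq2 adjusted p = 0.0922). Other DESeq2 calls on chromosome 6 lay farther from Pthlh. Whether sequence of the C57BL/6 strain remained around the floxed allele was not tested.

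Hhip (chr8:79965851-80058006, minus strand) encodes a membrane protein that binds and sequesters hedgehog ligands and is itself a hedgehog target. Levels were low throughout, at 0.115, 0.0236 and 0.183 CPM in WT tumors (6, 1 and 9 reads) and 0.890, 0.760 and 0.611 CPM in KO tumors (61, 36 and 44 reads). The groups did not overlap, and the log2 fold change was -2.75 ± 0.52 (edgeR adjusted p = 0.0985). Rsad1 (chr11:94539798-94549255, minus strand) encodes a mitochondrial protein with a radical SAM domain. It was at 3.25, 3.12 and 2.30 CPM in WT tumors and 5.85, 8.05 and 8.05 CPM in KO tumors, a log2 fold change of -1.34 ± 0.25 (edgeR adjusted p = 0.0734). Gm44639 (chr7:79277767-79280775, plus strand) is a predicted model with no known product. It was at 0.826, 0.945 and 0.692 CPM in WT and 2.93, 2.37 and 2.48 CPM in KO tumors, with little spread within either group (log2 fold change -1.66 ± 0.28, edgeR adjusted p = 0.0310).

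Of these 7 genes, Tlcd2, AA465934 and Rsad1 lie on chromosome 11, which holds 6.3% of the genes tested. Which of them passed depended on single tumors. Without KO tumor 3, 0 of the 7 passed, and edgeR called 0 genes in all (2771 at an unadjusted p under 0.05). Without WT tumor 1, 1 of the 7 passed, and without KO tumor 2, 3 did. Without WT tumor 2, WT tumor 3 or KO tumor 1, 5 of the 7 passed, among 8, 22 and 15 genes called. When the fit held the 6 compared libraries only, 1 of the 7 passed (Gm5182, edgeR adjusted p = 0.0241), and the other 6 had adjusted p-values from 0.478 to 0.905. That fit also tested fewer genes, 23860. With the mitochondrial rRNA share as a covariate, added after the data were seen, 2 of the 7 passed. The groups did not overlap for any of the 7 genes, so leaving out 1 tumor could not reverse a difference. The log2 fold changes were then 6.12 to 7.15 for Gm5182, -2.35 to -1.79 for Arntl2 and -3.34 to -2.32 for Hhip.

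**Figure D2:**
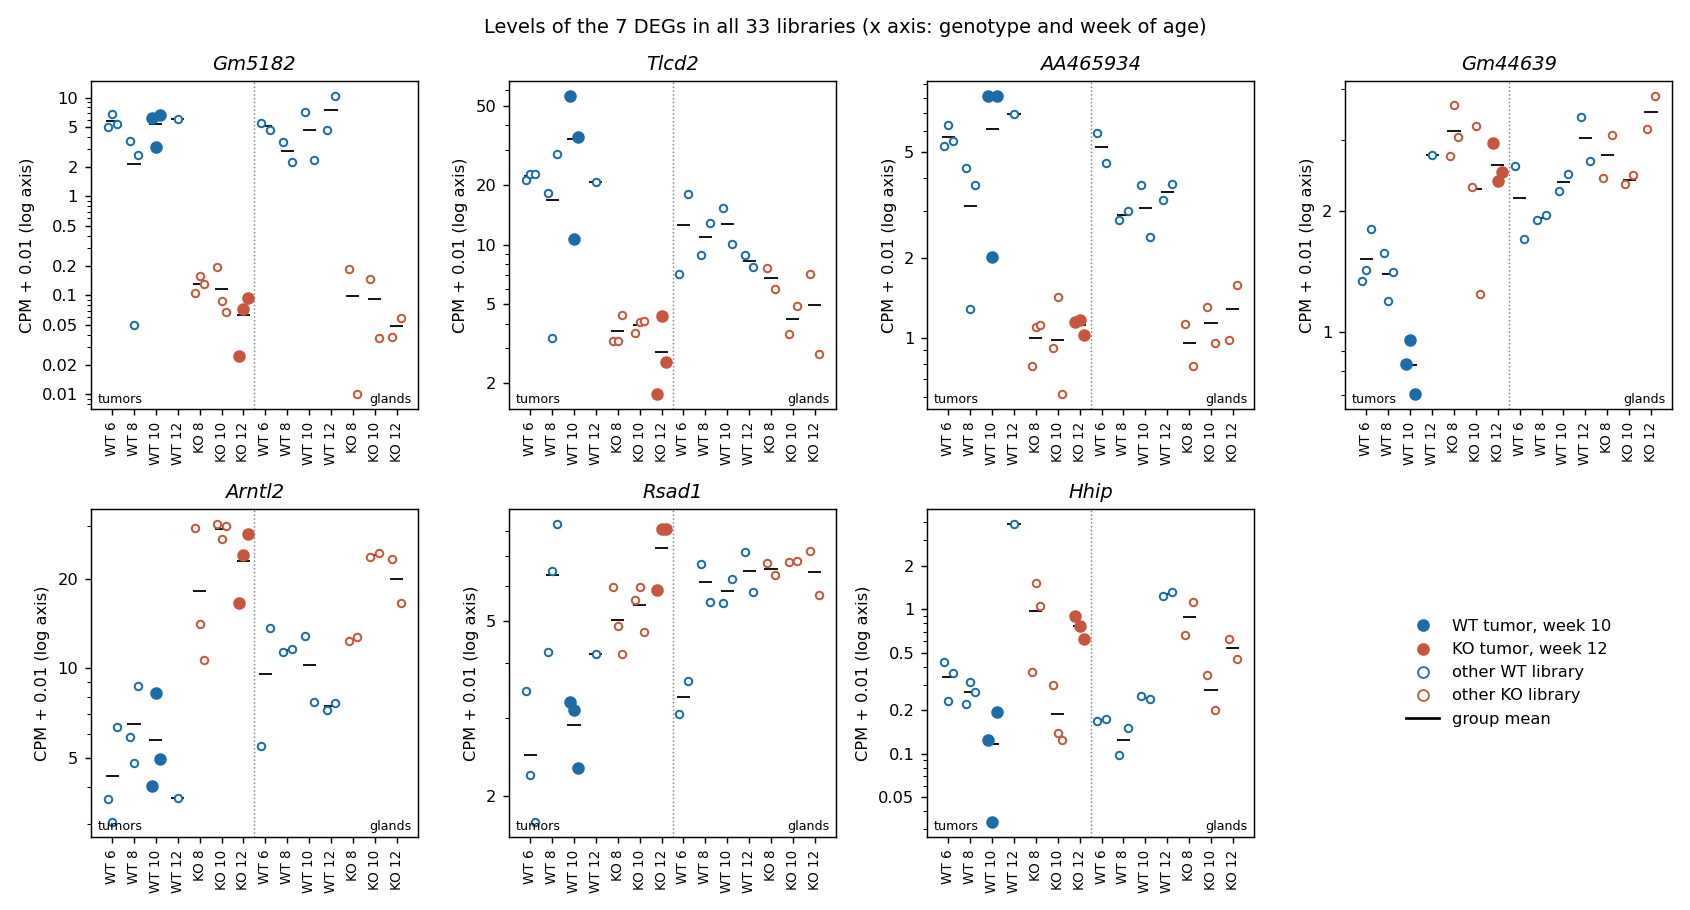
Level of each of the 7 DEGs (CPM + 0.01, log axis) in all 33 libraries, by genotype and week, with tumors left and glands right of the dotted line. Filled circles are the 6 tumors compared, open circles other libraries of the same genotype and bars group means. Arntl2 does not overlap between WT and KO tumors at any week, while Hhip and Rsad1 overlap at the earlier weeks.

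The same genes were measured in other mice at the earlier stages and in tumor-free glands, which share no library with the carcinomas. In hyperplasias (WT week 6 minus KO week 8), 6 of the 7 were called with the same sign, where 1.53% of all genes were called either way. The exception was Hhip, with a log2 fold change of -1.52 there and an edgeR adjusted p of 0.116. With the mitochondrial rRNA share as a covariate 1 of the 7 passed in hyperplasias. In adenomas (WT week 8 minus KO week 10), where 0.00821% of genes were called and 4.48% had an unadjusted p under 0.05, only Arntl2 passed among the 7 (log2 fold change -2.18, edgeR adjusted p = 0.0503). In glands of the same ages (WT week 10 minus KO week 12, 0.808% called), only Gm5182 passed among the 7 (log2 fold change 6.96, edgeR adjusted p = 0.0241). With the mitochondrial rRNA share as a covariate, or with the compared libraries only, 0 of the 7 passed in glands.

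Arntl2 was at 3.04 to 8.72 CPM (median 5.35) in the 6 WT tumors of weeks 6 and 8 and at 10.7 to 30.6 CPM (median 28.4) in the 6 KO tumors of weeks 8 and 10. In glands it was at 5.48 to 13.6 CPM in 8 WT mice and 12.35 to 24.4 CPM in 6 KO mice, so there the genotypes overlapped. Gm5182 was at 0.0403 to 6.84 CPM in the WT tumors and 0.0574 to 0.185 CPM in the KO tumors of these weeks. The lowest of the WT values came from 1 tumor of week 8, in which Tlcd2 was at 3.36 CPM and AA465934 at 1.27 CPM, both within the range of KO tumors. In glands the genotypes did not overlap for Gm5182, at 2.22 to 10.4 CPM in WT and 0 to 0.177 CPM in KO mice. AA465934 also separated the glands, at 2.39 to 5.91 CPM in WT and 0.770 to 1.58 CPM in KO mice. Rsad1 was at 1.73 to 8.3 CPM in earlier WT tumors and 4.19 to 5.94 CPM in earlier KO tumors, and its adenoma difference had the opposite sign (0.22, edgeR adjusted p = 0.891). The difference between the genotype effects in carcinoma and in hyperplasia was not called for any gene (0 of 36527, with 3325 or 9.1% at an unadjusted p under 0.05 and 12 calls by DESeq2). For Hhip it was -1.24 ± 0.69 and for Gm44639 -0.60 ± 0.38. The tumor effect, tumor minus gland of the same genotype and age, also differed between genotypes for 0 called genes (1938 at an unadjusted p under 0.05, 78 by DESeq2).

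At equal age, WT tumors of week 10 can be set beside KO tumors of week 10, which shares the 3 WT tumors with the comparison above. At this age 0.0192% of genes were called and 4.97% had an unadjusted p under 0.05. Log2 fold changes at equal age were 5.56 for Gm5182, 3.12 for Tlcd2, 2.64 for AA465934, -2.35 for Arntl2 and -1.46 for Gm44639 (edgeR adjusted p = 0.0262, 0.0681, 0.0287, 0.0262 and 0.0981). Rsad1 and Hhip did not pass, with -0.90 and -0.72 (adjusted p = 0.760 and 0.821). The series holds a single WT tumor of week 12, which has no replicate and entered no comparison. In it Gm5182 was at 6.00 CPM, Tlcd2 at 20.7 CPM, AA465934 at 6.97 CPM, Arntl2 at 3.65 CPM and Rsad1 at 4.18 CPM, each on the same side of all KO carcinomas as the WT tumors of week 10. For Hhip it stood at 3.90 CPM, above all KO carcinomas, and for Gm44639 at 2.74 CPM, within their range.

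Promoters were searched for the cyclic AMP response element, the palindrome TGACGTCA bound by CREB, because PTH1R acts through cyclic AMP. The windows ran from 250 bases before to 50 bases after each start site in RefSeq (GRCm38.p6), and the element is the same on both strands. It was present in 1.79% of 32851 windows. Windows were found for 5 of the 7 DEGs, and that of Hhip held the element, at position -75. It was also present in the window of Dusp1, at position -143, in 1 of 16 windows of immediate early genes and in 3 of 33 windows of the PTHrP list. The sequences of Hhip (chr8:80057959-80058258, minus strand) and Dusp1 (chr17:26508423-26508722, minus strand) are shown 5′ to 3′ with the element in capitals, as the called gene and the immediate early gene that hold it.
Hhip: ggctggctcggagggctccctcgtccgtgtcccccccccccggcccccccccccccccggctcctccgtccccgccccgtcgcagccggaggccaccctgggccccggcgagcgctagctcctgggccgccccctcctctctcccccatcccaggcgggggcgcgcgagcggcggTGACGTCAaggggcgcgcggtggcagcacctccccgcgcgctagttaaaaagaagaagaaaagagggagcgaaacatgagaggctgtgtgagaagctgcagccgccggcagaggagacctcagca
Dusp1: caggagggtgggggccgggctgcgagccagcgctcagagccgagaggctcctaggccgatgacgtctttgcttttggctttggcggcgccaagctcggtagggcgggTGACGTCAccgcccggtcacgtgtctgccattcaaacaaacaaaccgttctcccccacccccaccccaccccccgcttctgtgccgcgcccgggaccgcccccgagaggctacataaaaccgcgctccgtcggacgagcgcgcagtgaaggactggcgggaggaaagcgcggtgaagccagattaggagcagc
The E-box CACGTG, the element of clock transcription factors, was present in 7.15% of all windows and in that of AA465934 among the DEGs. A match describes the sequence and does not show binding.

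Proliferation genes varied widely within the genotypes. Ccnd1, which encodes cyclin D1, was at 60.5, 143 and 398 CPM in WT tumors and 345, 211 and 162 CPM in KO tumors. The groups overlapped (log2 fold change -0.26 ± 0.42, 95% interval -1.12 to 0.61), and the value was 0.18 without WT tumor 1 and -1.23 without WT tumor 3. Mki67 was at 71.2, 229 and 237 CPM in WT and 303, 213 and 161 CPM in KO tumors (-0.33 ± 0.52, and 0.05 without WT tumor 1), and Ccnb1 (cyclin B1) at 30.1, 63.7 and 98.3 CPM in WT and 110.2, 74.6 and 65.2 CPM in KO tumors (-0.38 ± 0.57). For all 26 genes of the G2/M phase the fold change was below 0, with a median of -0.40, but 0 of them separated the groups, 0 were called by edgeR or DESeq2 and 0 had an unadjusted p under 0.05. Their summed level was 750, 1828 and 2504 CPM in WT and 3028, 2011 and 1629 CPM in KO tumors. The median was 1.03 in hyperplasias, with the opposite sign. For 27 genes of the S phase the median was -0.28, 26 were below 0 and 0 had an unadjusted p under 0.05. Genes of the cell cycle vary together, so the members of a list are not separate observations. WT tumor 1 was the lowest in the G2/M sum, and without it the log2 fold change of Ccnb1 was -0.04, while without WT tumor 3 it was -0.83.

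Lipid genes were examined because the study asked about fatty acid metabolism. Scd1 and Scd2 encode stearoyl-CoA desaturases, which make monounsaturated fatty acids. Scd1 was at 3203, 2097 and 2005 CPM in WT and 1327, 2190 and 3332 CPM in KO tumors, a log2 fold change of 0.09 ± 0.31 with an interval of -0.54 to 0.73. Scd2 was at 811, 685 and 517 CPM in WT and 917, 1119 and 662 CPM in KO tumors (-0.42 ± 0.22, interval -0.87 to 0.03). The predicted gene Gm50337 was at 0.442, 0.472 and 0.448 CPM in WT and 0.306, 0.422 and 0.985 CPM in KO tumors (-0.34 ± 0.41), and without KO tumor 3 its value was 0.32. None of these 3 genes passed in edgeR or DESeq2, and the intervals of Scd1 and Scd2 lie within a 2-fold difference either way.

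Fasn, the fatty acid synthase gene, was among the synthesis genes whose groups did not overlap. All KO tumors lay above all WT tumors for 3 of 26 such genes, beside 3.67% of all genes. It was at 546, 602 and 593 CPM in WT tumors and 894, 926 and 781 CPM in KO tumors, so all KO tumors lay above all WT tumors with little spread in either group. The log2 fold change of -0.58 ± 0.15 is below the 1.5-fold threshold, and its adjusted p was 0.423 in edgeR and 0.0646 in DESeq2. At the earlier stages Fasn was at 706 to 828 CPM in 6 WT and 679 to 1081 CPM in 6 KO tumors, which overlap. Elovl6, which lengthens the product of Fasn, was at 39.0, 27.1 and 40.0 CPM in WT and 69.4, 59.0 and 49.8 CPM in KO tumors (-0.75 ± 0.25, edgeR adjusted p = 0.727). Insig1, a sterol-regulated brake on SREBP processing, passed in DESeq2 (adjusted p = 0.0824) and not in edgeR (-0.86 ± 0.23, adjusted p = 0.425). Of 26 genes of fatty acid and triglyceride synthesis, 0 were called by edgeR and 1 by DESeq2 (Insig1), 18 were below 0, 6 had an unadjusted p under 0.05 and the median was -0.21. Over all genes DESeq2 called 0.35%, and 6.53% had an unadjusted p under 0.05. The 20 genes of cholesterol synthesis were all below 0 with a median of -0.44, and 8 had an unadjusted p under 0.05, but 0 were called by edgeR or DESeq2. Only Lss and Pmvk among them separated the groups, both with all KO above all WT tumors (2 of 20, beside 3.67% of all genes). The summed level of 1117, 1699 and 1952 CPM in WT and 2905, 1842 and 1690 CPM in KO tumors overlapped.

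Genes of fatty acid uptake and oxidation had a median of 0.00 over 25 genes, 13 of them above and 12 below 0, with 0 called by edgeR and 2 by DESeq2. Those 2 of 25, beside 0.35% of all genes, were Lpl and Cpt1b. Lpl, which encodes the lipase that frees fatty acids from lipoproteins, was at 0.864, 1.32 and 2.73 CPM in WT and 3.70, 15.1 and 10.6 CPM in KO tumors (log2 fold change -2.57 ± 0.71, edgeR adjusted p = 0.479, DESeq2 adjusted p = 0.0454). Cpt1b, the muscle form of the carnitine transferase that admits fatty acids to mitochondria, was at 0.211, 0.354 and 0.224 CPM in WT and 0.715, 0.824 and 0.736 CPM in KO tumors (-1.53 ± 0.36, edgeR adjusted p = 0.298, DESeq2 adjusted p = 0.0175). The liver form Cpt1a was at 179.5, 92.6 and 80.9 CPM in WT and 49.9, 74.2 and 105.9 CPM in KO tumors, which overlap.

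**Figure D3:**
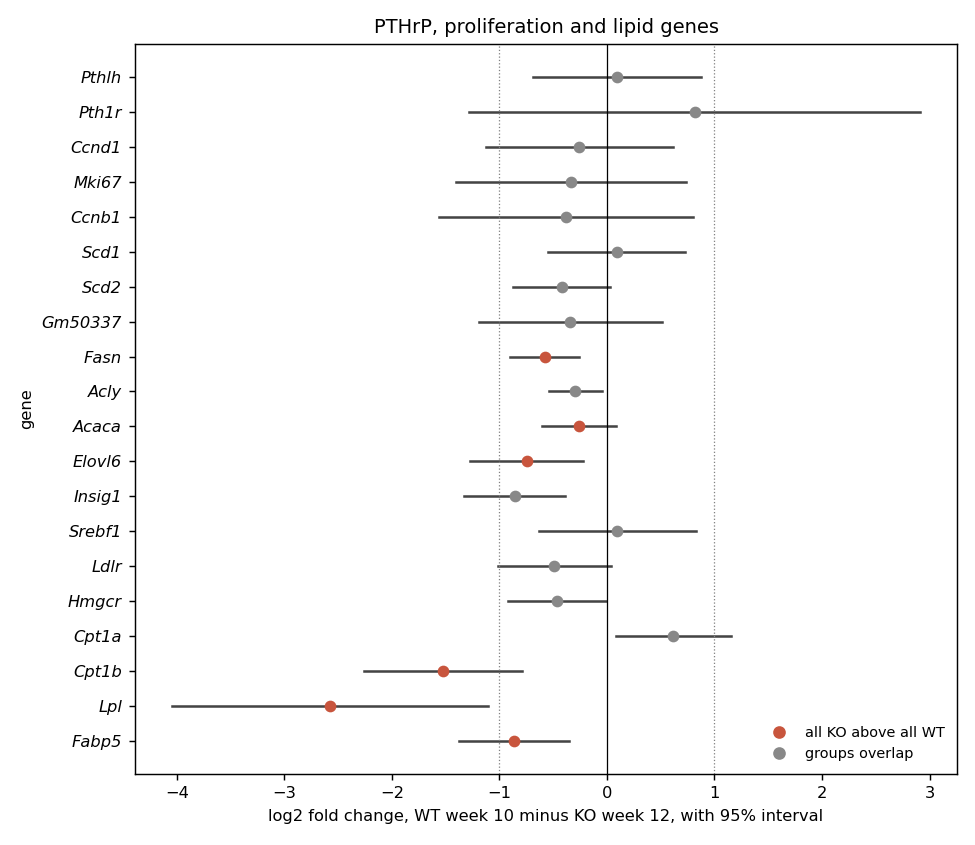
Log2 fold change (WT week 10 minus KO week 12, x axis) with its 95% interval for genes of PTHrP, proliferation and lipid metabolism. Red points mark genes for which all KO tumors lay above all WT tumors, and dotted lines mark a 2-fold difference. Pthlh, Scd1 and Srebf1 sit near 0, and Fasn, Elovl6, Lpl, Cpt1b and Fabp5 lie to the left without overlap.

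Several abundant genes of the luminal lineage varied more within a genotype than between genotypes. Igfbp5, a binding protein of insulin-like growth factors that is prominent in the involuting gland, was at 6914, 2837 and 2052 CPM in WT and 606, 3423 and 5134 CPM in KO tumors (log2 fold change 0.37 ± 0.72). Spp1, which encodes the matrix protein osteopontin, was at 6479, 2515 and 2947 CPM in WT and 802, 2389 and 5040.4 CPM in KO tumors (0.54 ± 0.60). Kit, a receptor of luminal progenitors, was at 140.3, 49.2 and 47.8 CPM in WT and 24.6, 133 and 130.1 CPM in KO tumors (-0.28 ± 0.45). KO tumor 1 was the lowest of the 6 for these 3 genes, and for Igfbp5 and Kit WT tumor 1 stood with KO tumors 2 and 3 above the others. Over 20 genes of luminal progenitors and milk the summed level was 15092, 8117 and 8646 CPM in WT and 3722, 9773 and 12926 CPM in KO tumors, with a median log2 fold change of -0.24. In 21 genes of ErbB and growth factor signalling it was 8379, 4341 and 3449 CPM in WT and 2179, 4985 and 6721 CPM in KO tumors, with a median of -0.12 and 0 calls by edgeR or DESeq2 (3 at an unadjusted p under 0.05).

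**Figure D4:**
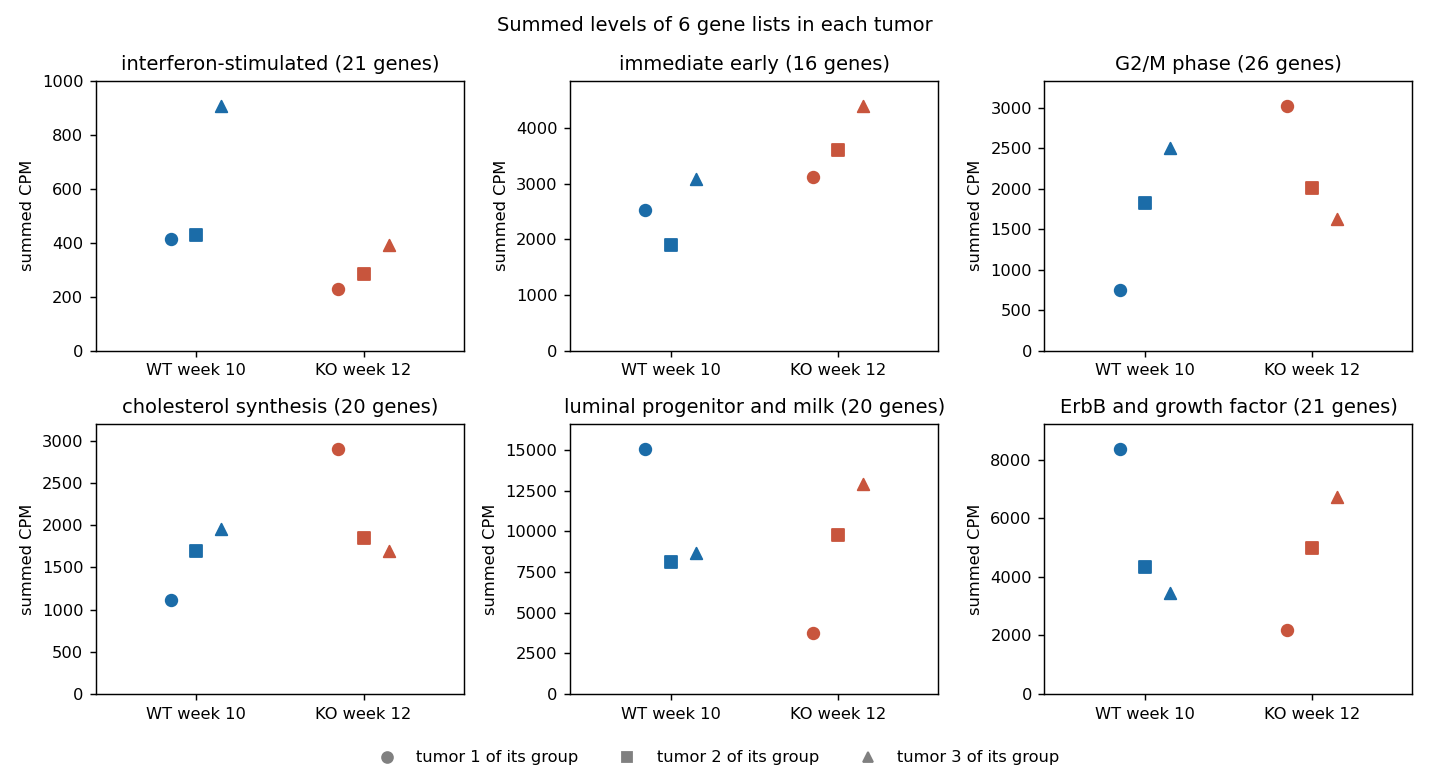
Summed CPM (y axis, from 0) of 6 gene lists in each of the 6 tumors, with the shape of a point giving the tumor within its group. WT and KO tumors separate in the interferon-stimulated and immediate early sums and overlap in the other 4, where WT tumor 1 and KO tumor 1 lie at opposite ends.

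Muc1, which encodes a mucin of the apical surface of luminal cells, was the luminal gene that DESeq2 called. It was at 13.8, 8.06 and 6.33 CPM in WT and 21.8, 63.5 and 98.0 CPM in KO tumors, a log2 fold change of -2.70 ± 0.65 (edgeR adjusted p = 0.313, DESeq2 adjusted p = 0.0300). In other mice it was at 2.91 to 11.7 CPM in the 6 WT tumors of weeks 6 and 8 and at 50.9 to 183 CPM in the 6 KO tumors of weeks 8 and 10. The hyperplasia difference of -4.42 was called by edgeR (adjusted p = 0.0129), as was that of the glands (-3.36, adjusted p = 0.0755), while the adenoma difference of -3.32 was not (adjusted p = 0.257). The single WT tumor of week 12 stood at 35.8 CPM, within the range of the KO carcinomas. The milk protein gene Csn2 also had all KO above all WT tumors, at 1.96, 0.0945 and 1.99 CPM in WT and 2.73, 3.78 and 49.9 CPM in KO tumors (-3.79 ± 1.24, edgeR adjusted p = 0.693). Among 13 hormone-sensing genes only Foxa1 had groups that did not overlap, with all KO above all WT tumors (1 of 13, beside 3.67% of all genes). Esr1 was at 8.66, 4.82 and 4.56 CPM in WT and 2.52, 12.2 and 3.84 CPM in KO tumors. Of that list 0 were called by edgeR or DESeq2 and 0 had an unadjusted p under 0.05.

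Immediate early genes, which respond within minutes to growth factors, cyclic AMP or stress, mostly had higher mean levels in KO tumors. Of 16 genes 15 were below 0, with a median log2 fold change of -0.77. An unadjusted p under 0.05 was found for 8 of the 16, beside 6.53% of all genes. None of the 16 was called by edgeR, and DESeq2 called Dusp1 and Zfp36 (2 of 16, beside 0.35% of all genes). Dusp1, a phosphatase gene that shuts off MAP kinases, was at 34.4, 17.3 and 62.6 CPM in WT and 109, 141 and 157 CPM in KO tumors (-1.83 ± 0.38, edgeR adjusted p = 0.148, DESeq2 adjusted p = 0.00383). Klf4, a Kruppel-like transcription factor gene, was at 24.9, 18.0 and 50.3 CPM in WT and 56.2, 69.0 and 85.2 CPM in KO tumors, and Zfp36, which encodes an mRNA decay factor, at 50.5, 32.1 and 43.3 CPM in WT and 55.7, 83.3 and 85.6 CPM in KO tumors. All KO tumors lay above all WT tumors for these 3 genes, 3 of the 16 beside 3.67% of all genes. Fos was at 377, 123 and 495 CPM in WT and 416, 798 and 1080.3 CPM in KO tumors, so that its groups overlapped.

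The summed level of the 16 genes was 2523, 1902 and 3089 CPM in WT and 3121, 3608 and 4406 CPM in KO carcinomas. Over the 3 tumor stages it was 1902 to 3089 CPM in 9 WT tumors and 3121 to 4406 CPM in 9 KO tumors, without overlap, though the gap between the groups was small. The list median was -0.92 in hyperplasias, -0.59 in adenomas and -0.37 in glands. In glands the sums overlapped, at 2282 to 4621 CPM in 8 WT and 3033 to 4656 CPM in 6 KO mice. The WT tumor of week 12 had a sum of 3966 CPM, inside the KO range. Dusp1 was at 33.5 to 60.0 CPM in earlier WT and 84.6 to 239 CPM in earlier KO tumors, and it passed in hyperplasias (-1.81, edgeR adjusted p = 0.0392). It did not pass in adenomas (-1.25, edgeR adjusted p = 0.866). In glands Dusp1 overlapped, at 38.8 to 106 CPM in WT and 97.5 to 204 CPM in KO mice. The WT tumor of week 12 had a Dusp1 level of 225 CPM.

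The genes Atf3, Plk3, Per1 and Bhlhe41, singled out after their values were seen, were called by DESeq2 and not by edgeR. Atf3, a stress-induced transcription factor gene, was at 15.1, 19.8 and 41.2 CPM in WT and 78.6, 64.9 and 93.2 CPM in KO tumors (-1.64 ± 0.41, edgeR adjusted p = 0.350). Plk3 was at 20.7, 18.0 and 96.6 CPM in WT and 169, 132 and 151 CPM in KO tumors. Per1, a clock gene that cyclic AMP and glucocorticoids induce, was at 16.6, 11.3 and 9.79 CPM in WT and 20.9, 40.2 and 29.5 CPM in KO tumors (-1.27 ± 0.25, edgeR adjusted p = 0.119, DESeq2 adjusted p = 0.00367). Per1 also did not overlap between earlier tumors, at 10.33 to 18.0 CPM in 6 WT and 19.6 to 32.97 CPM in 6 KO mice, and its hyperplasia difference of -1.34 passed in edgeR (adjusted p = 0.0268). The adenoma difference of -0.73 did not pass (edgeR adjusted p = 0.866). In glands Per1 overlapped, at 8.79 to 20.7 CPM in WT and 18.1 to 30.2 CPM in KO mice. In the WT tumor of week 12 it was at 40.0 CPM. Bhlhe41, a clock repressor gene, had the other direction, at 342, 364 and 224 CPM in WT and 105, 198 and 189 CPM in KO tumors (0.92 ± 0.25, edgeR adjusted p = 0.469, DESeq2 adjusted p = 0.0815).

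Interferon-stimulated genes, the antiviral program that interferons induce, mostly had higher mean levels in WT tumors. Of 21 genes 19 were above 0, the median log2 fold change was 1.11, and all WT lay above all KO tumors for 10 and the reverse held for 1 (Ifit2), beside 4.34% and 3.67% of all genes. In edgeR and DESeq2 0 of the 21 passed, and 8 had an unadjusted p under 0.05, beside 6.53% of all genes. Outside the list, DESeq2 called the interferon-induced genes Ifitm3 and Trim30a higher in WT tumors (DESeq2 adjusted p = 0.0773 and 0.0507). EdgeR did not call them (adjusted p = 0.524 and 0.502), and in adenomas both had the opposite sign (-0.61 and -0.76). These 2 genes were singled out after their values were seen. Oas1a, a sensor of double-stranded RNA, was at 11.2, 11.6 and 35.9 CPM in WT and 2.46, 2.79 and 5.75 CPM in KO tumors (2.41 ± 0.82, edgeR adjusted p = 0.727). Usp18, a brake on interferon signalling, was at 7.53, 14.8 and 59.9 CPM in WT and 0.919, 1.77 and 6.72 CPM in KO tumors (3.12 ± 1.14). WT tumor 3 was the highest of the 6 for both genes. The summed level of the list was 416, 429 and 909.7 CPM in WT and 229, 283 and 392 CPM in KO carcinomas.

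In other mice the list median was 0.04 in hyperplasias, -0.67 in adenomas and 4.49 in glands (WT week 10 minus KO week 12). The summed level was 279 to 812 CPM in KO tumors of week 10, which overlaps the WT tumors of the same age. In glands it was 825 and 2125 CPM in WT mice of week 10 and 424 and 829 CPM in KO mice of week 10. At week 12 it was low in both genotypes, with 207 and 222 CPM in WT glands, 185 and 200.3 CPM in KO glands and 283 CPM in the WT tumor of that week. All libraries of week 12 thus lay below the WT carcinomas of week 10 in this sum, and here the age difference between the groups cannot be told apart from genotype.

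The promoters of interferon-stimulated genes were searched for the interferon-stimulated response element, here GAAA and again GAAA with 2 bases of any kind between, on both strands. It was present in 10 of 18 windows of the list (55.6%) and in 3.44% of all windows. Oas1a (chr5:120907476-120907775, minus strand, RefSeq, GRCm38.p6) is shown as a gene of the list with the element whose tumor groups did not overlap. Its window holds 2 overlapping matches, the first at position -20, in capitals.
Oas1a: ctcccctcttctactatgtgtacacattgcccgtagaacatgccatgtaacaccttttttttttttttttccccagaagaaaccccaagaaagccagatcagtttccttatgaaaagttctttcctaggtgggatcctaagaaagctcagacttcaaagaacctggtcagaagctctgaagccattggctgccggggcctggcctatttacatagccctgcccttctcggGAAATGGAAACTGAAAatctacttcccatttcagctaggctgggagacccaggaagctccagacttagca

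Genes of the MHC, of both classes, and of antigen presentation had a median of 0.68 over 14 genes, with 12 above 0. All WT lay above all KO tumors for 6 and the reverse held for 1 (the class II gene H2-Aa), beside 4.34% and 3.67% of all genes. Again 0 were called by edgeR or DESeq2, and 7 had an unadjusted p under 0.05, beside 6.53% of all genes. The summed level of the list was 2005, 1743 and 3864 CPM in WT and 1513, 1337 and 1829 CPM in KO tumors, which overlap. In other mice the list median was 0.29 in hyperplasias, -0.33 in adenomas and 1.31 in glands. KO tumors of week 10 had sums of 1799 to 2282 CPM. The peptide transporter gene Tap1 was at 30.2, 19.7 and 52.8 CPM in WT and 9.74, 15.1 and 19.6 CPM in KO tumors (1.21 ± 0.42), and the immunoproteasome gene Psmb8 at 64.4, 51.7 and 111 CPM in WT and 35.0, 34.3 and 39.2 CPM in KO tumors (1.07 ± 0.36). B2m, the light chain of class I molecules, was at 463, 416 and 1169 CPM in WT and 335, 247 and 422 CPM in KO tumors, which overlap. The class II gene H2-Eb1 was at 0.204 to 0.496 CPM over the 6 tumors. The leukocyte gene Ptprc was at 0.0945 to 0.624 CPM, with overlapping groups.

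Among the genes that DESeq2 alone called higher in WT tumors were 5 neighbours on chromosome 1 of the interferon-inducible Ifi200 family, which includes DNA sensors. They were singled out after their values were seen. Ifi204 was at 2.29, 10.1 and 18.3 CPM in WT and 0.335, 0.845 and 0.444 CPM in KO tumors (4.26 ± 0.83, edgeR adjusted p = 0.114, DESeq2 adjusted p = 6.48e-05). Ifi202b was at 16.1, 77.0 and 84.0 CPM in WT and 5.21, 3.86 and 4.62 CPM in KO tumors (3.69 ± 0.78, edgeR adjusted p = 0.148). Mndal, Ifi211 and Ifi203 had log2 fold changes of 4.26, 4.45 and 3.28. The members are close in sequence and in position, so reads may be shared among them and they are not separate observations. In earlier tumors Ifi204 was at 1.11 to 3.72 CPM in WT and 0.0723 to 1.71 CPM in KO mice, which overlap. In glands its difference of 4.30 passed in edgeR (adjusted p = 0.0657). The WT tumor of week 12 had 0.285 CPM of Ifi204 and 1.90 CPM of Ifi202b, both below all KO carcinomas.

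**Figure D5:**
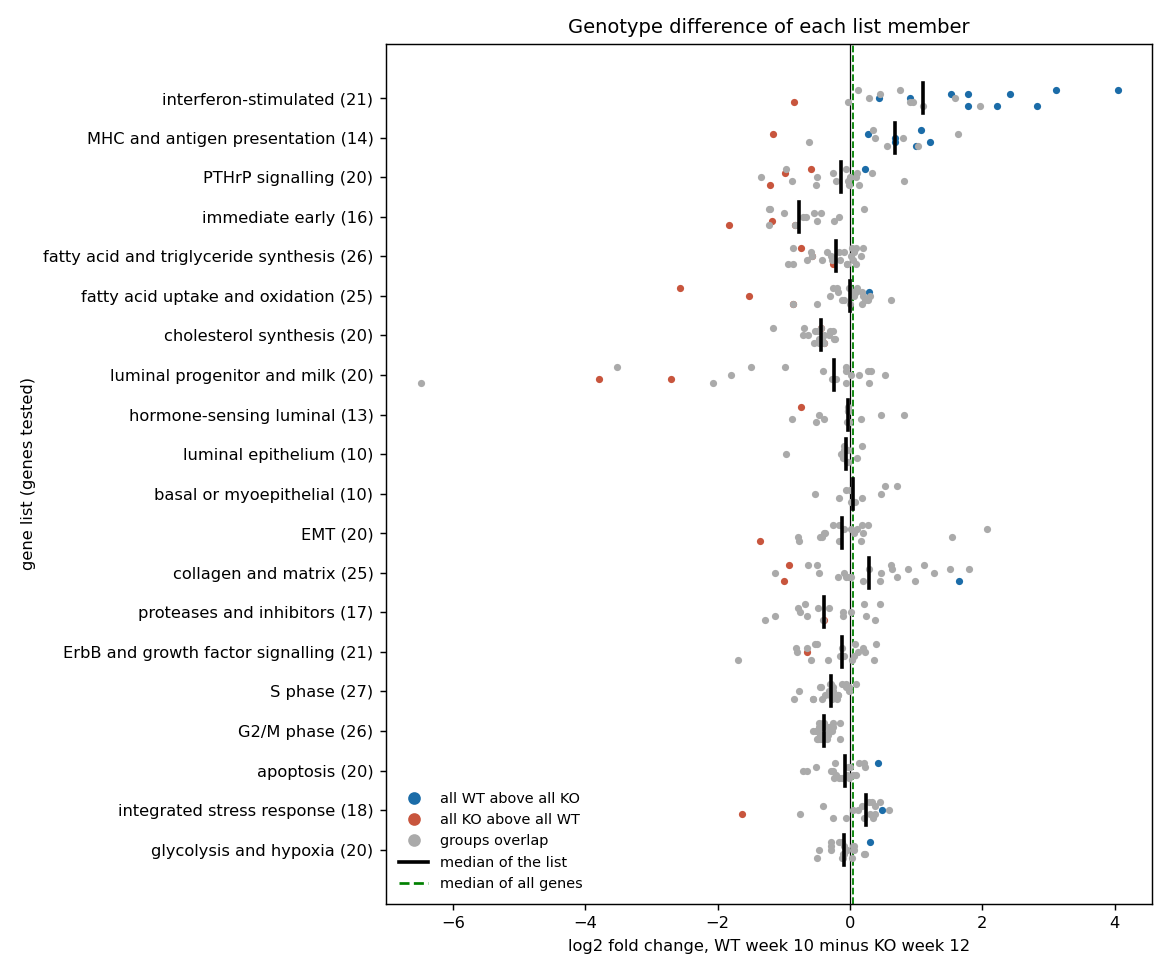
Log2 fold change (WT week 10 minus KO week 12, x axis) of each gene in 20 lists (y axis, number of genes tested in parentheses). Blue and red points are genes whose groups did not overlap, black bars the median of a list and the dashed line the median of all genes tested, 0.05. Most interferon-stimulated and MHC genes lie to the right of 0, and 15 of 16 immediate early genes to the left.

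Over all lists, 543 distinct genes were tested, of which 0 were called by edgeR and 10 by DESeq2, and 79 (14.5%) had an unadjusted p under 0.05. Over all genes tested the shares were 0.35% for DESeq2 and 6.53% for the unadjusted p. Among 25 genes of collagen and matrix the median was 0.28, with 15 above 0, and 0 were called by edgeR or DESeq2 (3 at an unadjusted p under 0.05). Col6a3, a chain of collagen VI, had all WT above all KO tumors, at 17.7, 5.81 and 3.58 CPM in WT and 3.28, 3.44 and 1.98 CPM in KO tumors (1.64 ± 1.08). The basement membrane collagens Col4a1 and Col4a2 had all KO above all WT tumors, with Col4a1 at 88.2, 64.7 and 60.0 CPM in WT and 98.0, 130.7 and 176 CPM in KO tumors (-0.93 ± 0.43). These were 1 of 25 genes with all WT above and 2 of 25 with all KO above, beside 4.34% and 3.67% of all genes. Among 20 EMT genes the median was -0.12. Cdh2, which encodes N-cadherin, was the only one of them without overlap (1 of 20, beside 3.67% of all genes with all KO above all WT). It was at 19.1, 17.6 and 21.5 CPM in WT and 81.4, 29.7 and 37.8 CPM in KO tumors (-1.36 ± 0.46, edgeR adjusted p = 0.727). Medians were -0.08 for 20 apoptosis genes, 0.25 for 18 genes of the integrated stress response, -0.09 for 20 genes of glycolysis and hypoxia, -0.40 for 17 proteases and inhibitors and -0.40 for 20 chemokines and cytokines. In these 5 lists 0 genes were called by edgeR, DESeq2 called only Atf3, and 1, 3, 1, 4 and 2 genes in turn had an unadjusted p under 0.05. Of the 20 EMT genes 0 were called by either tool (3 at an unadjusted p under 0.05). Of 13 mitochondrially encoded genes 5 had all KO above all WT tumors, beside 3.67% of all genes, and 0 were called by edgeR or DESeq2 or had an unadjusted p under 0.05. The mitochondrial rRNA share was also higher in 2 of the 3 KO tumors than in any WT tumor.

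DESeq2's 128 genes comprised 34 higher in WT tumors (0.0931%) and 94 higher in KO tumors (0.257%), and all 7 DEGs of edgeR were among them. They held 73 protein-coding genes and 55 of other biotypes, 20 of them pseudogenes, and 42 of the 128 were unnamed gene models of any biotype. Of all 36527 genes tested, 19970 were protein-coding and 16557 of other biotypes, 5267 of them pseudogenes, and 15701 were unnamed models. In hyperplasias 23 of the 128 were called by edgeR with the same sign and 0 with the opposite sign, while of all genes 457 and 102 were. In glands the counts were 12 and 0, and 244 and 51 over all genes. Some of the coding genes stood out for their level, and they were singled out after their values were seen. Wfdc18, a small secreted protein gene of the whey acidic protein family, was at 1079.7, 335 and 1003 CPM in WT and 167, 339 and 337 CPM in KO tumors, where the groups overlapped (1.52 ± 0.40, edgeR adjusted p = 0.416, DESeq2 adjusted p = 0.0454). It passed in hyperplasias (1.84, edgeR adjusted p = 0.0459) and glands (2.60, adjusted p = 0.0268). Ubb, a polyubiquitin gene, was at 432, 319 and 373 CPM in WT and 185, 272 and 271 CPM in KO tumors (0.62 ± 0.13, DESeq2 adjusted p = 0.00365). Klk1b22, a glandular kallikrein gene of a family of close copies, was at 10.9, 6.14 and 3.15 CPM in WT tumors, and in the KO tumors 0, 0 and 1 reads were counted. KO tumors of week 10 held 100, 0 and 0 reads of it and WT tumors of week 8 held 4, 3 and 5.

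Towards KO tumors, Pparg, the regulator of fat cell and lipid genes, was at 0.730, 0.472 and 0.549 CPM in WT and 0.365, 15.5 and 3.41 CPM in KO tumors (-3.45 ± 0.75, edgeR adjusted p = 0.157, DESeq2 adjusted p = 0.00338). KO tumor 1 lay below all WT tumors for it. The same order held for Plin4, a lipid droplet coat gene, at 1.79, 0.898 and 0.651 CPM in WT and 0.452, 10.7 and 8.15 CPM in KO tumors. The summed level of the 10 adipocyte markers, most of it from Plin4 itself and Lipe, was also higher in KO tumors 2 and 3, at 20.9, 13.4 and 11.8 CPM in WT and 13.5, 24.6 and 25.4 CPM in KO tumors. Of these markers 6 were below 0 and 3 above, 1 was at 0 in all 6 tumors, and the fat cell hormone gene Adipoq was at 0 to 0.0768 CPM. The part of such cells in these differences was not tested. Ncl, which encodes nucleolin, was at 155, 271 and 246 CPM in WT and 569.9, 455 and 331 CPM in KO tumors (-1.01 ± 0.26, DESeq2 adjusted p = 0.0683), and its difference in glands passed in edgeR (-1.46, adjusted p = 0.0406). Lif, a cytokine gene, was at 34.7, 78.2 and 146 CPM in WT and 322, 218 and 116 CPM in KO tumors, which overlap. The single WT tumor of week 12 was nearer to the KO mean than to the WT mean for 78 of the 128 genes (60.9%), beside 50.8% of all genes tested. Among genes of at least 1 CPM it was nearer to the KO mean for 60 of 93 (64.5%), beside 56.4% of all such genes.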

How the data were processed

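RNA of 33 samples of sorted GFP+ mammary cells, 1 mouse each, was sequenced as stranded, rRNA-depleted libraries. The authors used HISAT with GRCm38, Picard 1.128 against duplicates and HTSeq for the deposited table of raw counts. Whether counting used strand is not given in the sources used here, so overlapping and antisense genes may share reads. Of the table, 111 rows that name no gene (0.0778% of reads) entered neither library sizes nor tests.

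Groups were taken from genotype, tissue and age in the labels. Genes whose reads added up to 10 or more in the series were tested with edgeR 4.0.16 (R 4.3.3, limma 3.58.1), with TMM scaling, quasi-likelihood F-tests and 1 coefficient per genotype, tissue and age over all 33 libraries. Calls needed an adjusted p (Benjamini-Hochberg) under 0.1 and a more than 1.5-fold change, the study's thresholds, and DESeq2 1.42.0 was an alternative. CPM are counts scaled by the TMM library size. Totals of the 6 tumors were 40849018 to 70950505 reads. Exact permutation tests were two-sided. Scripts were tested on simulated data. The report names up to 15 called genes per direction with at least 1 CPM and no overlap, called genes of each list, and Pthlh, Pth1r, Scd1, Scd2, Gm50337, Ccnd1, Mki67 and Ccnb1. Because only 7 genes were called, all 7 are given, and examples from the lists are given where no member was called. Further genes called by DESeq2 alone, some of them with overlapping groups, were picked after their values were seen. The comparison, the genes and the lists were chosen with earlier results of these data known. Promoter sequences are from RefSeq. Alternatives covered the tool, scaling, filter, rRNA covariates, the replicate block, the libraries fitted and leaving out tumors.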

Additional observations from a re-analysis of the deposited data

Results flagged for a closer look

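A row of the count table for the PyMT sequence, which entered no comparison, held reads in all 6 carcinomas, at 51.4, 15.4 and 11.2 RPM (reads scaled by total counts) in WT tumors and 4.55, 69.4 and 36.2 RPM in KO tumors. It was listed because the lowest tumor value, 4.55 RPM in KO tumor 1, lies above the tumor-free glands, in which 0 reads were counted in all 14 libraries. The genotypes overlapped.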

How the results depend on the processing

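As reported, 7 genes were called. DESeq2 called 128 and a fit with no filter on low counts 180, and the share higher in WT tumors was 42.9% as reported, 26.6% in DESeq2 and 35% with no filter. Adding the mitochondrial rRNA share as a covariate gave 2, and leaving out KO tumors 1 and 2 gave 3, with 0 of the 7 among them. There the lone KO tumor was assumed to vary like the other groups. The compared libraries alone gave 7 genes, 1 of them among the 7 as reported. Leaving out 1 tumor at a time gave 0 to 22 genes, with 0 to 16 higher in KO and 0 to 6 higher in WT. The replicate numbers did not pair the samples (correlations of the deviations of same-numbered tumors were -0.69, -0.17 and -0.24), and a fit with the replicate block gave 3. Of the 7 genes, 6 were called in hyperplasias, against 3 with the rRNA share and 1 with the mitochondrial rRNA share as covariates. In adenomas 1 was called, against 4 with DESeq2 and 4 with no filter. In glands 1 was called, against 0 with the mitochondrial rRNA covariate and 0 with the compared libraries only. Differences between tumor effects were called for 0 genes, against 78 with DESeq2 and 98 with no filter, and differences between stages for 0, against 12 and 39. Of the list members 0 were called, against 10 with DESeq2, 32 with no filter, 1 without KO tumors 1 and 2 and 0 to 3 without single tumors. The rRNA share differed by -0.43 on the log10 scale, and by -1.24 to -0.00702 without single tumors. The causes were not tested.

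The groups did not overlap for any of the 7 genes, so the direction of their difference, the same throughout, could hardly change. Over 17 alternatives each, 48 of 119 values no longer passed. Gm5182 passed in 15 of them, Gm44639 in 12, Tlcd2 and Arntl2 in 11, AA465934 in 9, Rsad1 in 8 and Hhip in 5. The median of all genes was 0.05, and 0.11 without KO tumor 3. The alternatives with the mitochondrial rRNA share, without rRNA genes and without KO tumors 1 and 2 were chosen after seeing the data. With 3 mice a group the 95% interval reached beyond a 2-fold difference for the remainder of the expressed genes.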
